A study of Caenorhabditis elegans with 2 samples.

Results

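The genes described here are the cuticle collagens of Caenorhabditis elegans, taken by name from the Ensembl annotation of assembly WBcel235. They comprise 156 protein-coding genes whose name begins with col- and 9 collagen genes known from their mutants, bli-1, bli-2, dpy-7, dpy-10, dpy-13, rol-6, sqt-1, sqt-2 and sqt-3, giving 165 of the 19973 protein-coding genes of the nuclear genome. The rule goes by name and uses no measured value, though the family was picked with earlier results of these data known. The study located where ZIP-4, a basic leucine zipper (bZIP) transcription factor, sits on the genome, by chromatin immunoprecipitation and sequencing (ChIP-seq). There was 1 group, whole L1 larvae of a single transgenic strain, OP590, mixed sex, 6 hours of age and starved after bleaching. They carried unc-119(tm4063) and the transgene wgIs590, in which zip-4 is fused at its C-terminal end to TY1, EGFP and 3xFLAG and unc-119(+) is the rescue marker. An anti-GFP antibody was used for the precipitation, in 2 biological replicates. No library of larvae without the tag, of fed larvae or of another stage was analysed here, so every comparison sets the collagen genes beside all protein-coding genes, weak candidate regions beside peaks, or one replicate beside the other.

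The cuticle of a nematode is an extracellular coat that the epidermis secretes anew before each moult. Most of it is collagen, made as small proteins with Gly-X-Y repeats that are hydroxylated and folded in the endoplasmic reticulum, cleaved at the cell surface and then cross-linked. Collagen genes are transcribed in pulses within each moulting cycle, and different collagens build the furrows, annuli and struts of the coat. A larva that hatches without food arrests before its first moult and wears the cuticle laid down in the embryo. The name rule takes in some collagens of other kinds, such as col-99, which encodes a transmembrane collagen.

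Few collagen genes had a ZIP-4 peak. The authors' optimal set, kept by the irreproducible discovery rate (IDR) method from how well the ranks of regions match between replicates, holds 1290 peaks, and a promoter was taken as 1000 bp upstream to 200 bp downstream of a transcript start. By that measure 2 of the 165 collagen genes, col-38 and col-63, had a peak summit in the promoter. That is 1.21% (Clopper-Pearson 95% interval 0.147 to 4.31%), beside 5.7% of all protein-coding genes (1138). A longer list of 30000 candidate regions from the pooled reads, most of them weak, touched 55 collagen promoters or 33.3% (26.2 to 41.1%), beside 39.6% of all genes. These intervals cover counting over genes only, and genes are not replicates.

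The sequences at 4 summits are shown because they include a peak, the regions just below the peak threshold and a region that carries a word of the kind bound by C/EBP proteins, a bZIP subfamily. Each is 101 bases of ce11 centred on the pooled summit, on the strand of the collagen gene, and capitals mark TTRCNNAA, where R is A or G. They lie at II:8569465-8569565 on the minus strand, II:3502777-3502877 on the minus strand, X:6279709-6279809 on the plus strand and IV:10216280-10216380 on the plus strand.
col-38: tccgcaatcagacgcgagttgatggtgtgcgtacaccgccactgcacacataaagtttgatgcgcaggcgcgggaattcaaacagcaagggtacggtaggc
col-71: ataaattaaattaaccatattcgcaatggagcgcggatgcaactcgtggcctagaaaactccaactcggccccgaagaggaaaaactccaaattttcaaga
col-166: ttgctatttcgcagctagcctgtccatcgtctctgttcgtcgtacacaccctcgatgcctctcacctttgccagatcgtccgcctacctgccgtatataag
col-124: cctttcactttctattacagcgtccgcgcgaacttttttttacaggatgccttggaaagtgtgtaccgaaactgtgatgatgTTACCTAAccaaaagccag
The first 3 windows held none of the 7 words searched, and the fourth held TTACCTAA.

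The 8-base word TTGCGAAA is shown wherever it fell in a collagen promoter, since it lay at 17% of all promoter peaks (149 of 874). It is 1 form of TTRCNNAA, so a match to it is also a match to that looser word. The 5 matches are given as 28 bases each, in capitals where the word stands and on the strand on which it reads. They lie at II:3502673-3502700 on the minus strand, II:11046847-11046874 on the minus strand, III:11706893-11706920 on the plus strand, IV:148520-148547 on the plus strand and IV:9562552-9562579 on the plus strand.
col-71: gcttcagaaaTTGCGAAAaatcggcaaa
col-83: actattttttTTGCGAAAaaacgtccga
col-96: gacagaaaagTTGCGAAAttttcgcgac
col-99: aaaatttgccTTGCGAAAaattttggga
col-122: tggacattatTTGCGAAAtatggaaatt
None of the 5 stood within 50 bp of a pooled summit. The match of col-71 was nearest, 140 bp from a summit of rank 1368, and those of col-96 and col-99 were 238 and 424 bp from summits of rank 25305 and 25568. The matches of col-83 and col-122 were 2166 and 3616 bp from any pooled summit.

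The strongest region was that of col-63, at I:8245423-8245818 with its summit 658 bp upstream of the start. Its signal value, the deposited score by which regions were ranked, was 93.1 in replicate 1 and 69.0 in replicate 2, at ranks 606 and 384. In the pooled list it was 161 at rank 511. The summit lay in the 3′ untranslated region of the neighbouring homeobox gene ceh-8 and in the promoter of no other gene. The region of col-38, at II:8569317-8569712, had its summit 427 bp upstream in intergenic sequence. Its signal value was 81.6 in replicate 1 and 41.7 in replicate 2, at ranks 719 and 787, and 128 at rank 690 in the pooled list. That summit was also 412 bp upstream of rpl-5, a gene for a protein of the large ribosomal subunit, which is the nearer of the 2 starts. Both peaks stood within the top 1290 regions of each replicate alone. The printed window of col-38 was 55.4% G and C, and the matching window of col-63 was 49.5%.

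Just below the lowest signal value of the optimal set, 79.97, stood col-71 and col-166. The region of col-71, at II:3502629-3503024, had a pooled signal value of 76.8 at rank 1368, with 41.1 in replicate 1 and 37.4 in replicate 2 at ranks 2223 and 945. Its summit, 257 bp upstream, was also 141 bp upstream of Y49F6B.2. The interval contains the TTGCGAAA of the col-71 promoter printed above. The region of col-166, at X:6279561-6279956, had 72.6 at rank 1492, with 53.7 in replicate 1 and 16.6 in replicate 2. Those ranks, 1289 and 11635, show that col-166 was a top region of replicate 1 and a weak one of replicate 2. Counting pooled regions with a q-value of 0.05 or less added col-71 to the pair with peaks, making 3 collagen genes (1.82%, interval 0.377 to 5.22%), beside 6.21% of all genes.

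**Figure D1:**
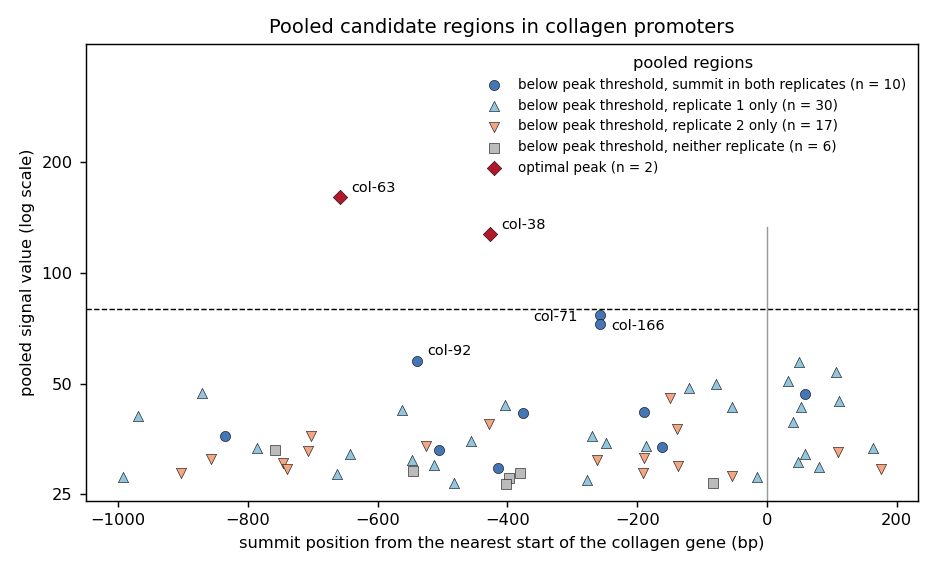
The pooled signal value (log scale) of the 65 regions in collagen promoters is plotted against the position of the summit from the nearest start of the collagen gene in bp, with upstream to the left. Symbols give whether a replicate summit lay within 100 bp, the dashed line is the lowest signal value of the optimal set (79.97), and the 2 peaks of col-63 and col-38 are the points above it.

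The other 8 of the 10 strongest regions outside the optimal set ranked from 2388 to 4738, and 6 of them were found in replicate 1 only. The region of col-92, 540 bp upstream in an intron of the dynein heavy chain gene dhc-4, had a pooled signal value of 57.8, with 31.3 in replicate 1 and 25.03 in replicate 2. The region of col-98, 58 bp into its own coding sequence, had 47.0 pooled, 19.7 in replicate 1 and 18.5 in replicate 2. These 2 genes were supported by both replicates, though col-98 stood only at rank 25268 of replicate 1. Among the regions found in replicate 1 alone, col-129 had 57.4 pooled and 50.1 in replicate 1, with its summit 49 bp downstream of the start. The region of col-42 had 53.8 pooled and 52.5 in replicate 1, with its summit 107 bp into the gene, and a second col-42 region 149 bp upstream was found in replicate 2 only. The summit of col-107 lay 33 bp downstream of its start, with 50.8 pooled and 37.6 in replicate 1. The summits of col-74 and col-124 lay inside gtap-1 and qns-1, with pooled signal values of 49.9 and 48.7. That of col-169 lay 871 bp upstream with 47.0 pooled and 26.2 in replicate 1. Of these 10 genes, 5 held TTRCNNAA at that summit, namely col-129, col-107, col-74, col-124 and col-98. The 2 strongest of the 10, col-71 and col-166, lacked it, as did col-92, col-42, col-169 and both peaks. Over all promoters the word stood at 15.6% of weak regions and 27.2% of peaks. Whether the 10 differ from these shares was not tested.

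None of the 9 collagens picked by name had a peak or a region at the same place in both replicates. No region of any list had its summit in the promoter of bli-1, which encodes a strut collagen of the adult cuticle, dpy-10, a furrow collagen, sqt-2 or sqt-3. For bli-2, another strut collagen, the pooled signal value was 29.6 at rank 23192, with 21.0 in replicate 1 and no region in replicate 2. For dpy-7, a furrow collagen, it was 28.4 at rank 25775, with 21.2 in replicate 1 and no region in replicate 2. For dpy-13, it was 32.3 at rank 18241, with 29.6 in replicate 1 at rank 6859 and no region in replicate 2, and the same promoter belongs to zipt-2.2. The gene rol-6 had a region in replicate 1 alone, at signal value 22.1 and rank 18440. The gene sqt-1 had 1 region in replicate 1 at 145 bp downstream (18.6, rank 28799) and another in replicate 2 at 119 bp upstream (15.6, rank 14345), which do not coincide. The pooled q-values of bli-2, dpy-13 and dpy-7 were 0.606, 0.59 and 0.612.

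In ratio, the shares of collagen genes and of all genes lay furthest apart at the strongest regions. In the pooled list 12 collagen genes (7.27%, interval 3.81 to 12.4%) had a region of rank 5000 or better, beside 12.2% of all genes. Of collagen genes, 1.21% had their best region within the top 1290, 6.06% between ranks 1291 and 5000, 5.45% between 5001 and 10000, 8.48% between 10001 and 20000 and 12.1% between 20001 and 30000. The shares of all genes in the same bins were 5.7%, 6.55%, 6.44%, 11.2% and 9.74%. In the last bin, the collagen share was the higher one. The median best rank was 15831 for the 55 collagen genes with a pooled region (quartiles 6370.5 and 22477.5) and 10873.5 for all 7906 genes with one. In signal value the medians were 33.8 for collagen genes and 37.7 for all genes, where the median of the whole list was 34.3.

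Each replicate alone gave similar counts. In replicate 1, 58 collagen genes had a promoter region, 35.2% (27.9 to 43.0%), beside 40.2% of all genes. In replicate 2, 59 had one, 35.8% (28.5 to 43.6%), beside 39.2% of all genes. The median best rank was 16846.5 for collagen genes and 10938.5 for all genes in replicate 1, and 15542 and 11523 in replicate 2. A set of 71 collagen genes, 43.0%, had no promoter region in any of the 3 long lists, beside 42.2% of all genes. In all 3 lists, 21 collagen genes (12.7%) had one, beside 21.9% of all genes.

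**Figure D2:**
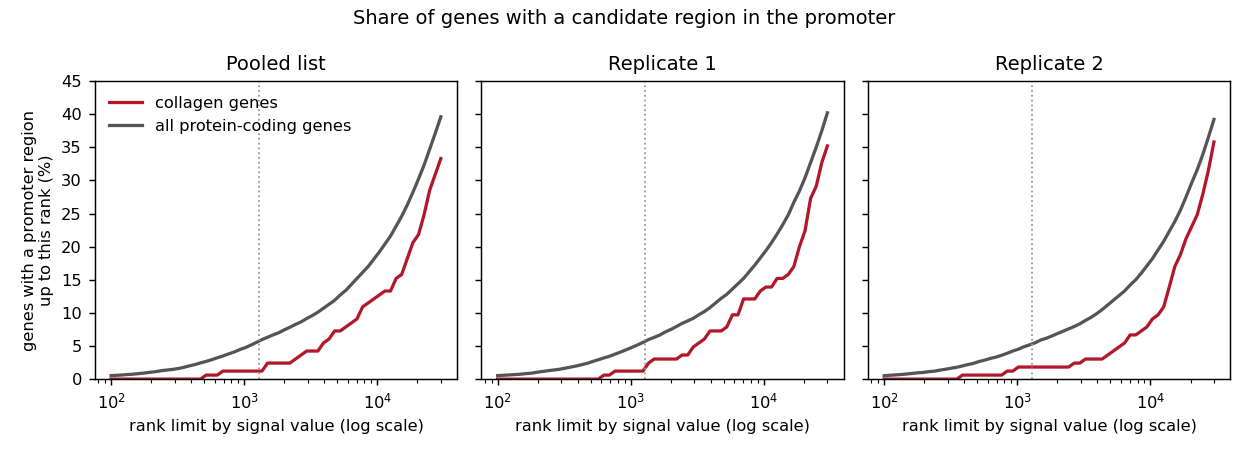
The share of genes with a promoter region up to a given rank is plotted against that rank (log scale) in the pooled list and in each replicate, for collagen genes and for all protein-coding genes, with a dotted line at rank 1290. The curve of collagen genes ends at 33.3%, 35.2% and 35.8% in the 3 panels and that of all genes at 39.6%, 40.2% and 39.2%.

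Regions at the same place in both replicates were found for 14 collagen genes, where the same place means summits within 100 bp. That is 8.48% (4.72 to 13.8%), beside 14.6% of all genes. By mean rank the first 5 were col-63, col-38, col-71, col-92 and col-166, as described above. The next 5 were col-161, col-97, col-109, col-98 and col-185, and all ranked beyond 10000 in replicate 1. For col-161 the signal value was 22.7 in replicate 1 and 20.6 in replicate 2, at ranks 16947 and 5443. The ranks were 17829 and 13247 for col-97, 26975 and 6197 for col-109, and 27065 and 6666 for col-185. All 5 ranked better in replicate 2 than in replicate 1. The remaining 4 were col-181, col-141, col-87 and col-78. Over these 14 genes the signal values of the replicates had a Spearman coefficient of 0.63, beside 0.76 over the 2915 genes with such a region, given as a description since the replicates share their control alignment.

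**Figure D3:**
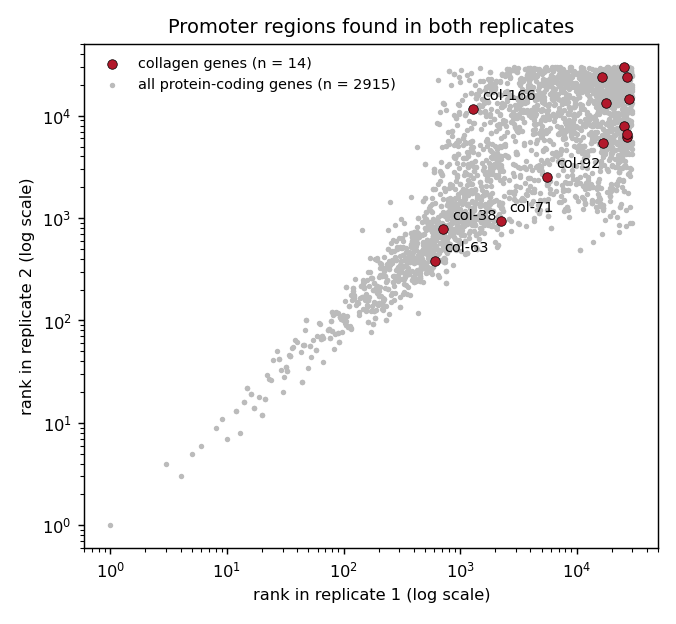
The rank in replicate 1 is plotted against the rank in replicate 2 (both log scales) for genes with promoter summits within 100 bp in both, 14 collagen genes in red and all 2915 genes in grey. No collagen gene lies among the strongest regions, the best being col-63 at ranks 606 and 384, and 9 of the 14 lie beyond rank 10000 in replicate 1.

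Most candidates in collagen promoters were not repeated. Of the 55 collagen genes, the best pooled region had a summit within 100 bp in both replicates for 12 (21.8%), in replicate 1 only for 26 (47.3%), in replicate 2 only for 13 (23.6%) and in neither for 4 (7.27%). The shares over all 7906 genes with a pooled region were 36.5%, 34.1%, 18.9% and 10.4%.

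Set against peaks, the weak candidates of collagen genes resembled weak candidates of other promoters in most measures. The 63 weak regions had a median signal value of 33.3 (range 26.7 to 76.8) and the 2 peaks had 161 and 128. Over all promoters the medians were 34.4 for 8016 weak regions and 143 for 874 peaks. The summit lay a median of 270 bp upstream in the collagen weak regions, 261 bp upstream in all weak promoter regions and 190 bp upstream in all promoter peaks. Within 200 bp upstream of the start lay 22.2% of the collagen weak summits, 21.6% of all weak summits and 45.5% of all promoter peaks. These distances are not quite alike. For collagen regions they run to the collagen start, and over all promoters to the nearest start of any gene. The median share of G and C around the summit was 38.6% in both weak sets and 46.5% in all promoter peaks. Both replicates held the summit of 10 of the 63 collagen weak regions (15.9%), of 23.2% of all weak regions and of 95.4% of all promoter peaks. A promoter of a second gene was hit by 22.2% of the collagen weak regions, by 11% of all weak regions and by 35.5% of all promoter peaks. The first share is not on a like footing with the other 2. A region in the promoters of 2 genes has more ways to enter a set picked by gene, while over all promoters each region counts once.

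By position, 20 of the 65 regions in collagen promoters had their summit in coding sequence (30.8%), 33 in intergenic sequence (50.8%) and 10 in an intron (15.4%). Over all 8890 promoter regions the shares were 23%, 47.7% and 20.7%, and over the 874 promoter peaks 2.4%, 78.1% and 12.7%. Among weak regions alone they were 31.7%, 50.8% and 15.9% for collagen genes, beside 25.3%, 44.4% and 21.5% for all promoters. Of the 20 coding summits, 11 lay in the collagen gene itself and 9 in a neighbour. The windows at the 11 had a median of 50.5% G and C, beside 36.6% at the collagen regions outside coding sequence and 41.6% at all coding summits in promoters. Whether base composition has a part in these candidates was not tested. Collagen genes were short, with a median length of 1219 bp against 2027 bp for all genes, and the distance to the next gene upstream had a median of 1371 bp against 1156 bp.

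The words searched, on both strands, were TTRCNNAA, its forms TTGCGAAA and TTGCGCAA, the cyclic AMP response element TGACGTCA with its shorter core TGACGT, the GATA factor word AGATAA, and the repeat GAGAGAGA. Over the 1200 bp promoter window, TTRCNNAA was present in 154 collagen genes (93.3%) and in 90.5% of all genes. The form TTGCGAAA was present in 5 collagen genes, 3.03% (0.991 to 6.93%), and in 10.1% of all genes. The palindrome TTGCGCAA was also in 5 collagen promoters (3.03%), and in 1.97% of all promoters. The GATA word was present in 63.0% (55.2 to 70.4%) and 55.7%, TGACGT in 30.9% and 32.6%, TGACGTCA in 6.06% and 5.88%, and the GA repeat in 12.1% and 8.69%. At the summit of the best pooled region, within 50 bp, TTRCNNAA stood in 13 of 55 collagen genes (23.6%). It stood in 17.6% of the 7906 genes with a pooled region. No collagen summit held TTGCGAAA, beside 3.66% of those 7906 genes, and 3 held TGACGT (5.45%), beside 4.72%.

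**Figure D4:**
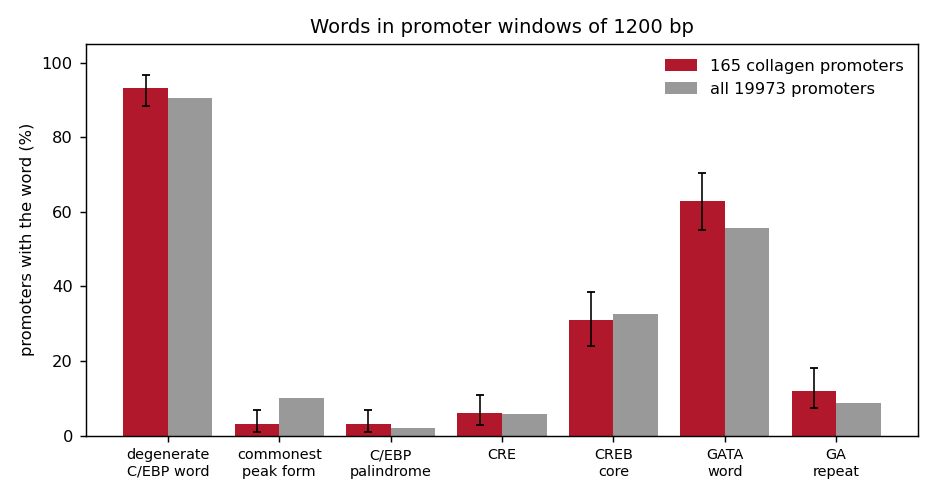
Bars give the share of promoter windows of 1200 bp that hold each of the 7 words, for 165 collagen genes with 95% Clopper-Pearson intervals and for all 19973 genes. The words run in the order TTRCNNAA (degenerate C/EBP word), then TTGCGAAA (the form counted at 17% of promoter peaks), then the C/EBP palindrome, the cyclic AMP response element (CRE), its core, the GATA word and the GA repeat; the form TTGCGAAA stands at 3.03% and 10.1%.

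Genes that act with the collagens were counted the same way, from lists drawn up by function. Over all genes, 5.7% had a peak, 39.6% a pooled region and 14.6% a region in both replicates. Among 12 other cuticle collagens known from mutants, 1 had a peak, bli-6 (8.33%, interval 0.211 to 38.5%). A pooled region was found for 4 of them and a region in both replicates for 3. The bli-6 region, at IV:6376557-6376952, had a signal value of 53.6 in replicate 1 and 25.2 in replicate 2, with 81.6 pooled at rank 1251, and its promoter is shared with the RNA-binding protein gene hrpf-2. None of the 3 basement membrane collagens had a peak, which allows a share of up to 70.8%. Of the 3, 1 had a pooled region and none a region in both replicates. Of 17 genes for collagen processing and cross-linking, 2 had a peak (11.8%, interval 1.46 to 36.4%), 9 a pooled region and 6 a region in both replicates. They were the protein disulfide isomerase genes pdi-2 and pdi-3, and the PDI-2 protein is also a subunit of the collagen prolyl 4-hydroxylase. For pdi-2 the summit lay 20 bp upstream, with 73.1 in replicate 1, 37.3 in replicate 2 and 114 pooled at rank 786. For pdi-3 it lay 670 bp upstream in a promoter shared with the ubiquilin gene ubql-1, with 104 in replicate 1, 79.1 in replicate 2 and 171 pooled at rank 469. In each replicate pdi-3 stood above both collagen peaks and pdi-2 below both.

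Of 35 cuticulins, which are non-collagen cuticle proteins, none had a peak. A pooled region was found for 11 (31.4%), beside 39.6% of all genes, and a region in both replicates for 2 (5.71%), beside 14.6%. Of 12 regulators of moulting and epidermis, 2 had a peak (16.7%, interval 2.09 to 48.4%), 7 a pooled region and 4 a region in both replicates. The 2 with a peak were myrf-1 and myrf-2, membrane-bound transcription factors of larval development and moulting. For myrf-1 the signal value was 76.6 in replicate 1, 32.7 in replicate 2 and 110 pooled at rank 827, with the summit 258 bp upstream. For myrf-2 it was 118 in replicate 1, 44.3 in replicate 2 and 165 pooled at rank 489, with the summit 495 bp upstream. Each list is small, the intervals of the lists overlap, and no difference between lists was tested.

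**Figure D5:**
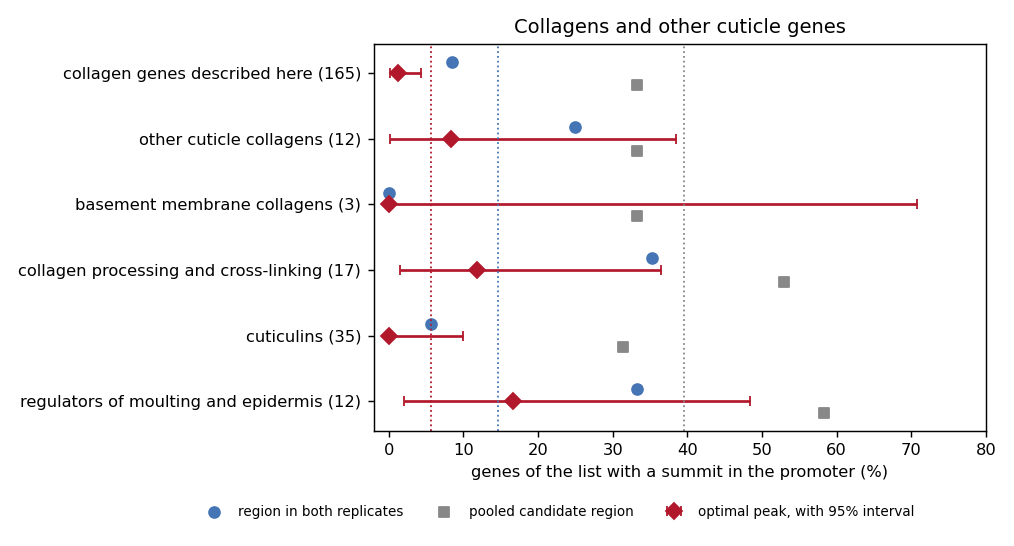
For the 165 collagen genes and 5 lists of other cuticle genes (number of genes in brackets), the share with an optimal peak is given with its 95% Clopper-Pearson interval, with the share with a region in both replicates and with a pooled region. Dotted lines are the shares of all protein-coding genes, 5.7%, 14.6% and 39.6%, and the interval of the collagen genes, 0.147 to 4.31%, is the narrowest.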

How the data were processed

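The authors deposited 4 narrowPeak region lists, 1 per replicate, 1 pooled and the optimal IDR set, on assembly ce11 per the labels. The antibody field names zip-4 and the description GFP, which is followed here. Both replicates used the same control alignment, per the file headers. No sequencing depth, aligner, peak caller or IDR threshold is given in the sources used here. Regions were ranked within a list by the deposited signal value, a score of unstated scale. The q-values come from the −log10 q that the authors deposited, and the summit is the deposited offset within the interval. The optimal peaks are the 1290 pooled regions of highest signal value, in 1287 distinct intervals, and 1461 pooled regions had q of 0.05 or less.

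Genes came from Ensembl release 115, without the 12 mitochondrial ones. Counts used Python 3.11.15, pandas 2.3.3, numpy 2.4.6 and SciPy 1.17.1. The assignment of summits to promoters and the word search were tested on simulated data. The matching of summits between replicates, the ranking and the counts were not. Chance tests over genes were not made. Genes named are those with a peak, the 10 strongest outside the optimal set, the 10 best by mean replicate rank, the 9 named collagens and listed cuticle genes with a peak. Genes with TTGCGAAA, the last 4 by mean replicate rank, col-94 and neighbouring genes were named after their values were seen. Members, lists and words were chosen with earlier results of these data known. The symbol ram-4 was not found.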

Additional observations from a re-analysis of the deposited data

How the results depend on the processing

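Of 40 alternatives over 6 counts or medians, 25 stayed within 1.5 times the reported count or within 922 ranks of the reported median, which is the SD of the median over the 2 replicates. The 2 replicate medians behind this SD are themselves among the 40, so their outcomes are tied to it. The 2 genes with a peak became 1 with a promoter of 500 bp upstream to 100 bp downstream (col-38, beside 4.46% of all genes). They became 1 with each region given only to its nearest start within 1000 bp, in place of the promoter window (col-63, 4.37%). They were also 1 with the stronger peaks only (col-63, 3.3%) and with regions shared with other genes left out. They became 3 with 2000 bp upstream (adding col-94, 7.24%). The 1290 strongest regions of 1 replicate gave 3, adding col-71 in replicate 2 and col-166 in replicate 1, beside 5.33% and 5.74% of all genes. Each percentage in this paragraph is the share of all genes under the same setting, not of collagen genes. The 55 genes with a pooled region became 34 with 500 bp (beside 25.8%), 87 with 2000 bp (beside 55.8%) and 26 in the stronger part of the list (beside 24.3%). By nearest start within 1000 bp they became 73 (beside 48.4%), which stayed within 1.5 times. The 14 with both replicates became 9 with 500 bp (beside 9.86%) and 25 with 2000 bp (beside 21.1%). Where intervals shared 1 base they became 22 (beside 19.8%). The 3 with q of 0.05 or less became 1 by nearest start (beside 4.81%) and 1 without shared regions. With shared regions left out, no share over all genes was counted. The median rank was 11863.5 with 500 bp and 15542 to 16846.5 with either replicate alone. With 500 bp no median over all genes was set beside it, so the contrast in median rank is not known for that window. The 13 summits with TTRCNNAA became 6 within 25 bp. The cause of these shifts was not tested, beyond the wider or narrower windows themselves. Counting every transcript start, added after seeing the data and included in the 40, gave 2 and 55. No paired analysis was possible because there was 1 group and no test.

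With 2 replicates, 1 control and no untagged larvae, no value here separates ZIP-4 binding from signal that any tagged protein would give. Larvae were taken whole, so binding in the epidermis, where collagens are made, and in other tissues cannot be told apart. Of the 65 regions, 15 also lay in the promoter of a gene that is no collagen here, and a summit in a promoter does not show which gene is affected.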

Other observations

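A total of 51 collagen genes had another collagen gene within 5000 bp, and 12 of these (23.5%) had a pooled promoter region, beside 43 of the 114 (37.7%) that stood alone. Over all genes the share was 39.6%. Other genes were not split by spacing, and this difference was not tested. By chromosome, 8 of 12 collagen genes on III had a pooled region (66.7%), beside 43.3% of all genes there. On I the count was 3 of 21 (14.3%), beside 39.5% of all genes there. On II it was 9 of 30 (30.0% beside 37.7%), on IV 16 of 42 (38.1% beside 39.2%), on V 10 of 32 (31.2% beside 37.3%) and on X 9 of 28 (32.1% beside 43.1%). These counts are small, and no difference between chromosomes was tested.

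Within the gene body, 62 collagen genes (37.6%, interval 30.2 to 45.4%) held a pooled summit, beside 51.2% of all genes, which are longer. The nearest pooled summit lay a median of 1046 bp from the start of a collagen gene and 870 bp from the start of any gene. Of the 4 collagens picked by name that had no promoter region in any list, it lay 236 bp away for sqt-3, 370 bp for sqt-2, 966 bp for bli-1 and 1778 bp for dpy-10.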
